A study of Mus musculus with 4 samples.

Results

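Heterotrimeric G proteins carry signals from receptors in the plasma membrane to enzymes and ion channels inside the cell. An alpha subunit binds guanine nucleotide, exchanges GDP for GTP when a receptor is activated, and separates from a dimer of a beta and a gamma subunit, after which both parts act on effectors until the alpha subunit hydrolyses its GTP. In hippocampal neurons these proteins serve the metabotropic receptors for glutamate, GABA, acetylcholine, adenosine, serotonin and opioids.

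The genes described here are 5 alpha subunits (Gnao1, Gnai2, Gnas, Gnaq and Gna11) and 3 beta subunits (Gnb1, Gnb2 and Gnb5). The members were all probe sets whose array annotation gives 1 of these 8 symbols and no other, which made 19 probe sets of 12422 after array controls were set aside. Gnao1 had 5, Gnai2, Gnas and Gnb1 had 3 each, Gna11 had 2, and Gnaq, Gnb2 and Gnb5 had 1 each. They are 8 of 8251 genes with such a probe set. The genes were chosen by the low signal of 1 Gnao1 probe set in the 1-hour sample, so the 1-hour differences of the members are given as a description, with no test.

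RNA came from area CA1 of the hippocampus of young male C57BL/6J mice, an inbred laboratory strain, that had been handled by the experimenter and had received nothing else. The 4 samples, 1 each, were collected 1, 2, 4 and 6 hours after other mice of the experiment had been given their final shock. Shocked mice were not analysed here. Whether several mice were pooled for a sample is not in the labels, and time, animal, dissection and array cannot be told apart. In such tissue RNA, fewer cells of a type and less RNA per cell cannot be told apart either. Each sample was read on 1 array of 1 colour, and the number of arrays limits the precision. Signals below are the deposited intensities on a linear scale. Log2 differences were taken after quantile normalization with a floor at a signal of 35.1. Of the 19 member probe sets 16 were bright enough to be tested, at least 1 for each gene.

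The state of the samples is given before the 1-hour values. The 3' over 5' signal ratio of the Gapdh control transcript was 4.52 in the 1-hour sample, against 1.18 to 1.37 in the others, and that of beta-actin was 2.34 against 1.76 to 2.00. Some choroid plexus genes were also higher there. Transthyretin (Ttr), its main secreted product, had a signal of 2246.3 at 1 hour and 142.8 to 352.7 in the others. All 4 tested choroid plexus probe sets lay above the mean of the other 3 samples (3 of 4 on the values as deposited). Of all tested probe sets 54.6% did. Of the 4, Ttr and Calml4 were 2-fold or more higher, where 1.76% of all were. With the floor at the 40th percentile 1 of the 4 was. Kl lay at 0.47 and Igfbp2 at 0.002 on the log2 scale. The summed signal of the 4 was 3202.9 at 1 hour, of which Ttr made 2246.3, and 894.9 to 1208.1 in the others. Of 11 tested oligodendrocyte probe sets 4 were 2-fold or more lower at 1 hour (3 of Mobp and 1 of Mag), where 4.55% of all were. In total 9 of the 11 lay below 0 and 2 above. Both genes divided by probe set. The brightest Mobp probe set had signals of 11694.9 at 1 hour and 8172.1 to 10647.6 in the others (0.15 on the log2 scale). The other Mag probe set lay at -0.22, and Mog at 0.52. Of the CA1 markers, the 6 tested probe sets of Wfs1, Pou3f1, Nrgn, Neurod6 and Man1a summed to 10082.8 at 1 hour and 8066.8 to 10791.1 in the others. Both probe sets of Camk2a, a defining enzyme of these neurons, were below the filter, with signals of 5.1 to 94.9 over the 4 samples. The part these differences play in the results below was not tested.

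Gnao1 encodes the alpha subunit of Go, the abundant G protein of neurons, which inhibits calcium channels through the beta-gamma dimer it releases. In the assembly GRCm38.p6 the gene spans chr8:93810153-93969388. Its probe set 100388_at had a signal of 43.9 at 1 hour and 279.9, 296.7 and 323.1 at 2, 4 and 6 hours. The 1-hour value stood alone, close to the floor, and the other 3 lay near each other. The log2 difference of the 1-hour sample from the mean of the others was -2.79 (SD of those 3, 0.12), a signal 6.90-fold higher in the others. This is the value for which the genes were chosen. With the floor at the 40th percentile the same difference was -1.40.

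The other probe sets of Gnao1 did not share this low value. Probe set 103843_at had signals of 13911.5 at 1 hour and 13234.4, 13601.7 and 12811.8 at 2, 4 and 6 hours. The 1-hour value was the highest of the 4 as deposited, but the lowest after quantile normalization (-0.09, against 0.07 as deposited). Probe set 104414_at had 832.5 at 1 hour and 606.2, 722.8 and 531.7 in the others, a log2 difference of 0.46 (SD 0.24). Here the 1-hour sample was the highest by both scalings. Probe set 161902_f_at had 516.4 at 1 hour and 816.7, 849.5 and 673.9 in the others (-0.54, SD 0.19), so it was lowest at 1 hour by a smaller margin. The fifth, 103844_at, had 14.5 to 16.2 in all 4 samples, below the floor, and gives only an upper bound. The 4 tested probe sets of 1 gene thus ran from -2.79 to 0.46 in the same sample.

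**Figure D1:**
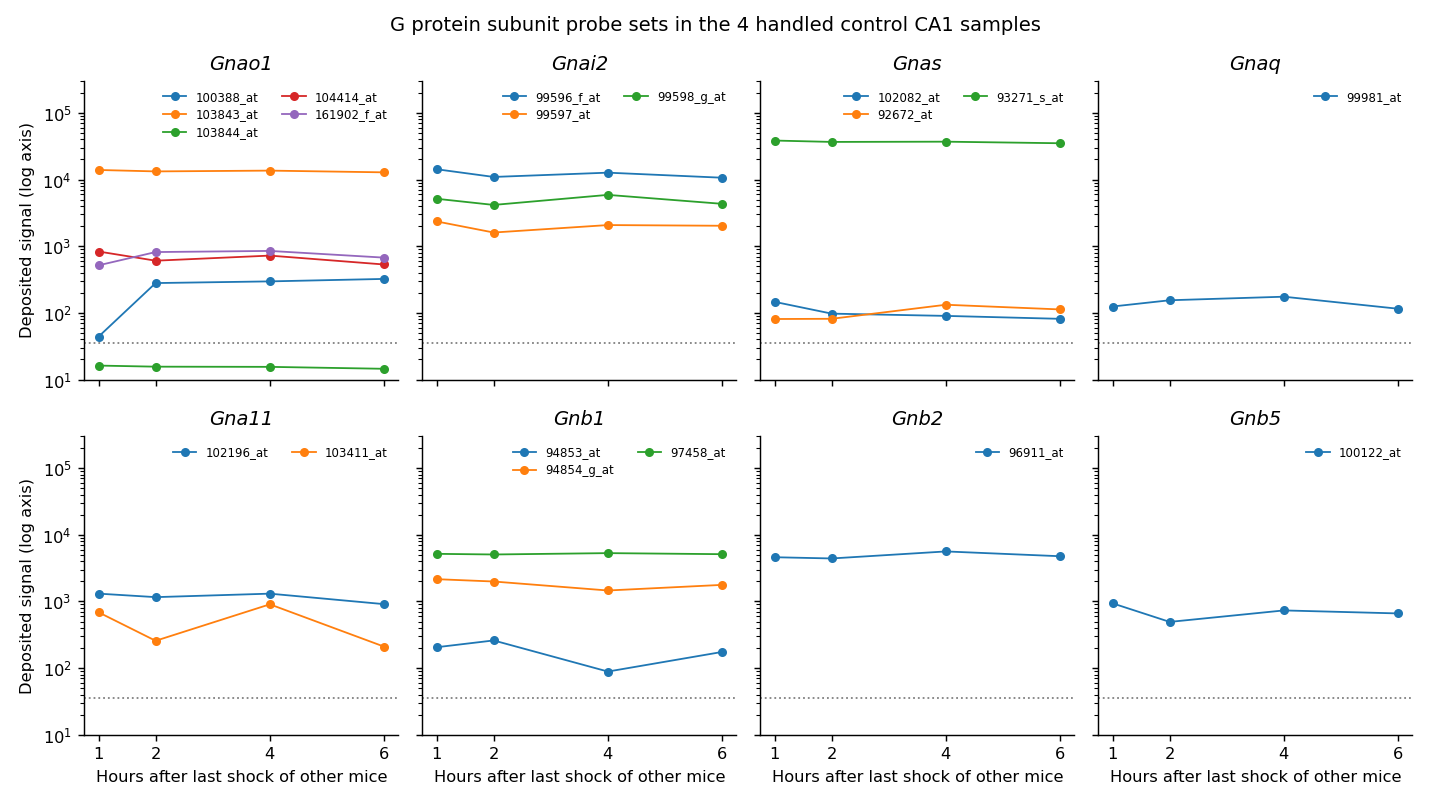
Deposited signal (log axis) of all 19 G protein subunit probe sets in the 4 handled control CA1 samples, by hours after the last shock of the other mice, 1 panel per gene, 1 line per probe set and 1 point per sample; the dotted line is the floor at a signal of 35.1. Gnao1 100388_at is at 43.9 at 1 hour, Gna11 103411_at is high at 1 and 4 hours, and Gnb1 94853_at is low at 4 hours.

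How often probe sets of 1 gene part in this way was counted over the array. Of 920 genes with at least 2 tested probe sets, the median gap between the highest and the lowest 1-hour difference was 0.48 on the log2 scale, and 155 genes (16.8%) had a gap of 1 or more. Such a gap can only widen as a gene has more probe sets, and Gnao1 had 4 tested. The number of probe sets per gene was not taken into account. The gap of Gnao1 was 3.25, rank 2 after Nsmf, and on the values as deposited it was 3.21, rank 3. The low end of that gap is the value for which the genes were chosen, so its size and rank describe the choice and support nothing. For Gna11, Gnb1 and Gnai2 the gap was 0.70, 0.48 and 0.29. A total of 118 genes had at least 1 probe set 2-fold or more lower at 1 hour. In 9 of them every tested probe set was that low, and in 56 of them, Gnao1 included, another probe set lay above 0.

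**Figure D2:**
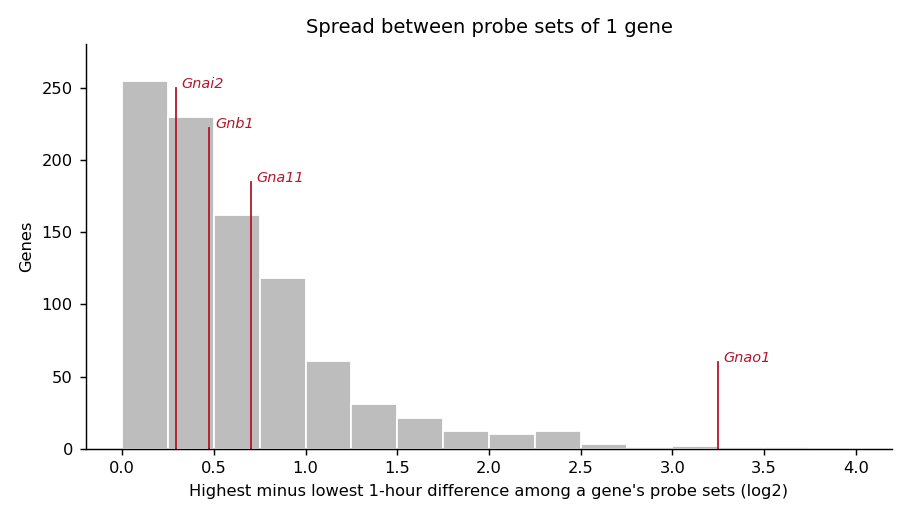
Histogram of 920 genes by the gap between the highest and the lowest 1-hour log2 difference among their tested probe sets (bins of 0.25). Red lines mark the 4 G protein genes with several tested probe sets: Gnai2 at 0.29, Gnb1 at 0.48 and Gna11 at 0.70 lie among most genes, and Gnao1 at 3.25 lies in the far tail.

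The Gi and Gs families act on adenylyl cyclase, the enzyme that makes cyclic AMP, in opposite directions. Gnai2, an inhibitory alpha subunit, had 3 probe sets. Probe set 99596_f_at had signals of 14266.7 at 1 hour and 10930.0, 12674.2 and 10642.1 at 2, 4 and 6 hours, a log2 difference of 0.14 (SD 0.14) that was 0.33 on the values as deposited. Probe set 99597_at had 2354.5 at 1 hour and 1603.4, 2074.7 and 2025.3 in the others (0.32, SD 0.20). Its companion 99598_g_at, annotated to the same source sequence, had 5145.9 at 1 hour and 4158.3, 5884.8 and 4319.6 in the others (0.02, SD 0.27). All 3 were above 0 at 1 hour, none by as much as 2-fold, though 99598_g_at was below 0 when the 2- or the 6-hour sample was left out (-0.07 and -0.04), and all 3 were lower at 2 than at 4 hours.

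Gnas, which encodes the stimulatory alpha subunit and lies in an imprinted locus with several first exons, passed the filter on 1 probe set only. Probe set 93271_s_at had signals of 38419.2 at 1 hour and 36633.2, 36943.6 and 35000.4 at 2, 4 and 6 hours. As deposited these values lay close together, with the 1-hour sample highest (0.09 on the log2 scale). After quantile normalization the probe set held the same rank in the 2-, 4- and 6-hour samples and therefore the same value, and the 1-hour difference was -0.24, so its direction depends on the scaling. Gnas 102082_at had 146.4 at 1 hour and 97.4, 90.1 and 81.4 in the others, and Gnas 92672_at had 80.9 at 1 hour and 81.5, 132.4 and 112.6 in the others. Both were above the floor in all samples but too dim for the filter, so neither entered a test.

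Gnaq and Gna11 encode the alpha subunits of Gq and G11, which activate phospholipase C beta and so release calcium from internal stores. Gnaq 99981_at had signals of 124.6 at 1 hour and 154.6, 174.8 and 115.3 at 2, 4 and 6 hours. The 1-hour value lay inside the range of the others (-0.23, SD 0.30). Gna11 102196_at had 1309.7 at 1 hour and 1160.0, 1308.6 and 910.6 in the others (0.25, SD 0.27), with 6 hours the lowest. Gna11 103411_at varied far more, with 687.6 at 1 hour and 257.0, 905.5 and 209.9 in the others. The 1- and 4-hour samples were both more than 2-fold above the 2- and 6-hour samples, a pattern singled out after the values were seen. Of 7453 tested probe sets 14 had it (0.188%), and its range of 2.13 on the log2 scale was the largest among members outside Gnao1. Its 1-hour difference of 0.96 (SD 1.16) stood just under 2-fold, within the spread of the other samples. It was 1.62 without the 4-hour sample, past 2-fold, and 0.56 without the 6-hour sample.

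Beta subunits bind the gamma subunit tightly, and the dimer opens potassium channels and acts on other effectors. Gnb1, the widely expressed beta subunit, had the narrowest range of the tested members on 1 probe set and one of 3 ranges past 2-fold on another. Gnb1 97458_at had signals of 5174.0 at 1 hour and 5061.3, 5303.9 and 5114.5 at 2, 4 and 6 hours, a range of 0.09 on the log2 scale. Gnb1 94853_at had 205.6 at 1 hour and 260.0, 88.8 and 174.8 in the others, with the 4-hour sample -1.20 from the mean of the rest and a range of 1.47. Its 1-hour difference of 0.39 (SD 0.75) was -0.01 without the 4-hour sample. Gnb1 94854_g_at, annotated to the same source sequence, had 2157.9 at 1 hour and 1990.1, 1459.2 and 1771.5 in the others, with 4 hours again the lowest (-0.44). In both the 4-hour sample was the lowest and the 6-hour sample the next, and 97458_at did not share the low 4-hour value.

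Gnb2, a close relative of Gnb1, had a signal of 4603.4 at 1 hour and 4411.1, 5622.3 and 4765.0 at 2, 4 and 6 hours (96911_at). The 4-hour sample was the highest, 0.28 above the mean of the rest on the log2 scale. Gnb5, the beta subunit of neurons and retina that pairs with regulators of the RGS7 class, had 936.7 at 1 hour and 493.2, 733.3 and 660.9 in the others (100122_at). Its 1-hour sample was the highest, with a log2 difference of 0.63 (SD 0.32), and its 2-hour sample the lowest.

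Set side by side, 1 of 16 tested member probe sets was 2-fold or more lower at 1 hour, where 4.55% of all 7453 tested probe sets were. It was Gnao1 100388_at, for which the genes were chosen, and outside Gnao1 the count was 0 of 12. None of the 16 was 2-fold or more higher, where 1.76% of all were, but Gna11 103411_at was so without the 4-hour sample (1.62). The nearest members inside those limits were Gnao1 161902_f_at at -0.54 and Gna11 103411_at at 0.96. The 12 tested probe sets of the other 7 genes ran from -0.24 to 0.96, with 8 above 0 and 4 below (54.6% of all tested lay above 0) and a median of 0.20, against 0.05 for all tested probe sets. On the values as deposited the 1-hour differences of Gnao1 103843_at, Gnas 93271_s_at and Gnb1 97458_at changed sign, and 12 of 16 members lay above 0 in place of 9. The share of all tested probe sets above 0 was not counted on that scale, so the 12 cannot be set against it. The median of all tested probe sets was 0.03 there.

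**Figure D3:**
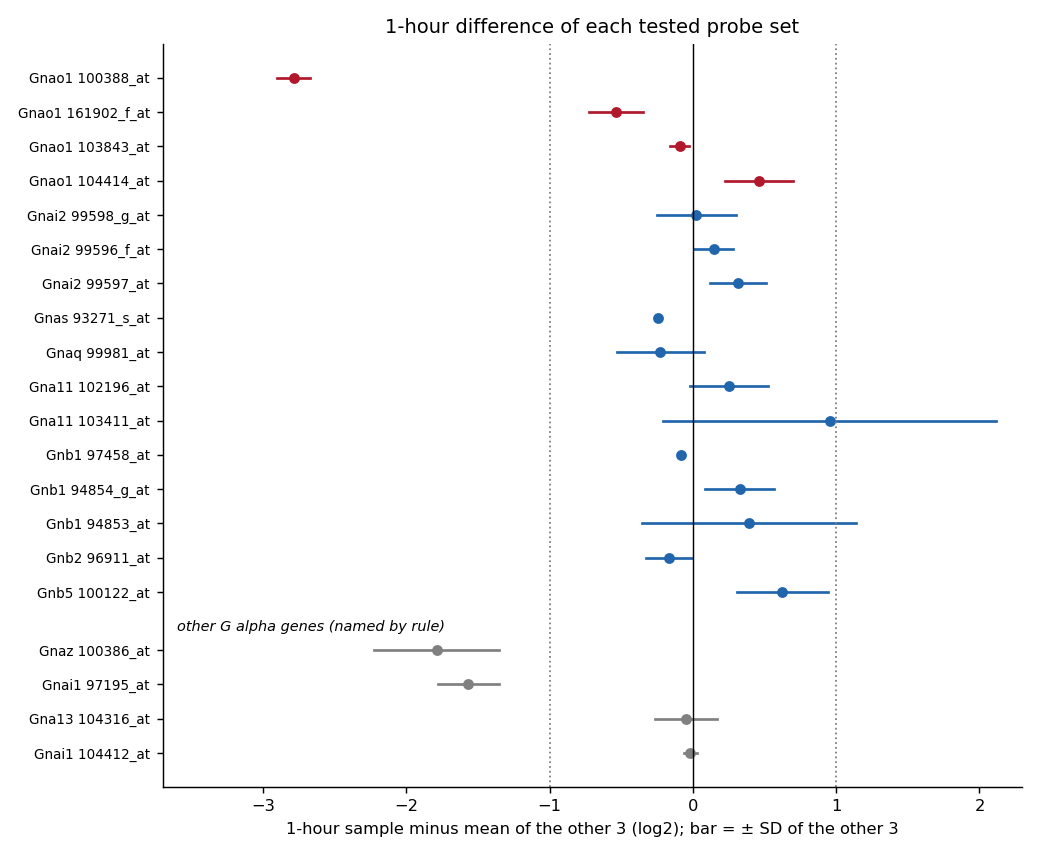
Difference of the 1-hour sample from the mean of the other 3 samples (log2, points) with plus and minus the SD of those 3 (bars) for the 16 tested member probe sets, Gnao1 in red and the others in blue, and for 4 probe sets of other alpha subunits in grey; dotted lines mark 2-fold. Gnao1 100388_at lies at -2.79 and Gnaz and Gnai1 97195_at at -1.79 and -1.57, and all other points lie between the 2-fold lines. The points of Gnao1 103843_at, Gnas 93271_s_at and Gnb1 97458_at, all under 0 here, lie above 0 on the values as deposited. The SD of Gnas 93271_s_at is 0 because its ranks were tied.

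Spread over the samples was like that of the array. A range of 2-fold or more over the 4 samples was seen in 3 of 16 members (Gnao1 100388_at, Gna11 103411_at and Gnb1 94853_at), where 17.8% of all tested probe sets had one. Gnao1 100388_at was among them through the 1-hour value for which the genes were chosen. Outside Gnao1 the count was 2 of 12. Without the 1-hour sample the count over all members was 2 of 16, where 9.11% of all had one, and Gnao1 100388_at had a range of 0.24 there. The median SD over the 4 samples was 0.25 both for members and for all tested probe sets.

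The 4-hour sample, which was not the one singled out when the genes were chosen, stood slightly high for most members. Of 16 tested probe sets 14 lay above the mean of the other 3 samples at 4 hours, where 50.8% of all did, and the 2 exceptions were Gnb1 94853_at and 94854_g_at. Outside Gnao1 the count was 10 of 12. The mean of the other 3 holds the 1-hour value for which the genes were chosen. Gnao1 100388_at lay at 0.94 at 4 hours, and at 0.01 without the 1-hour sample. The median difference was 0.17 on the log2 scale for members and 0.01 for all tested probe sets. Without the 1-hour sample 13 of 16 lay above the mean of the other 2 (9 of 12 outside Gnao1), where 51.8% of all did. Among the 2-, 4- and 6-hour samples the 4-hour value was the highest in 12 of 16 members, where it was for 35.6% of all. The number above 0 was 14 under each of the 4 other scalings and floors tried. By 2-fold or more, Gna11 103411_at alone was higher at 4 hours (1.46), where 1.07% of all were, and Gnb1 94853_at alone was lower, where 1.93% of all were. Several of these probe sets measure 1 gene, and all share the 1 array at 4 hours, so this count is no test. At 2 hours 1 member was 2-fold or more lower (Gna11 103411_at, where 1.72% of all were) and 0 were higher (1.25% of all). At 6 hours Gna11 103411_at was again lower (1.61% of all), and Gnao1 100388_at was higher (1.53% of all), since the mean it was set against held its 1-hour value.

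A linear trend with time was tested with limma over all probe sets. Over the 2-, 4- and 6-hour samples, a contrast that the choice of genes did not use, 0 of 16 members and 0 of 7453 probe sets (0.0%) had an adjusted p under 0.05. In simulated data this fit recovered 0% of planted log2 changes of 1 and of 3, so 0 calls says nothing about these genes. At an unadjusted p under 0.05 there were 0 members and 250 probe sets (3.35%). The member with the smallest p was Gnai2 99597_at, with a fitted log2 change of 0.33 (SE 0.24) from 2 to 6 hours (unadjusted p = 0.202, adjusted p = 1.0). Gnb5 100122_at followed with 0.44 (SE 0.32, unadjusted p = 0.210, adjusted p = 1.0). Both directions rest on the 2-hour sample, without which the changes were -0.05 and -0.36, with no test possible. Without the 6-hour sample they were 0.70 and 1.23. Gnao1 100388_at had a fitted change of 0.24 (SE 0.35, unadjusted p = 0.524, adjusted p = 1.0) on the same scale.

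Over all 4 samples the trend was again called in 0 of 7453 probe sets (0.0%), with 467 (6.27%) at an unadjusted p under 0.05. None of the 12 tested probe sets outside Gnao1 was among these. The smallest p among them was that of Gna11 102196_at, with a log2 change of -0.43 (SE 0.26) from 1 to 6 hours (unadjusted p = 0.147, adjusted p = 0.763). That direction rests on the 6-hour sample, without which the change was 0.05. With 2 residual degrees of freedom, and 1 in the fit of 3 samples, a missing call does not show a constant level. In simulated data the fit of 4 samples recovered 0% of planted log2 changes of 1 and 71.5% of changes of 3.

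Other parts of the pathway were read from lists chosen with earlier results of these data known. Among the alpha subunits that are no members, all 8 tested probe sets of Gnaz, Gnai1, Gnai3, Gna12 and Gna13 lay below 0 at 1 hour (7 of 8 with columns scaled to equal medians), with a median of -0.41, against 0.05 for all tested probe sets. Of all tested probe sets 54.6% lay above 0. Of these 8, 2 were 2-fold or more lower, where 4.55% of all were, and 0 were called in either trend. Gnaz, the alpha subunit of Gz, which also inhibits adenylyl cyclase, had signals of 127.8 at 1 hour and 327.6, 581.0 and 459.6 in the others (100386_at, -1.79, SD 0.44).

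Gnai1, another inhibitory alpha subunit, divided by probe set as Gnao1 did. Gnai1 97195_at had 179.0 at 1 hour and 592.6, 455.4 and 602.7 in the others (-1.57, SD 0.22). Gnai1 104412_at had 3159.4 at 1 hour and 3101.5, 3138.3 and 3262.5 in the others (-0.02, SD 0.04). Gna13, the alpha subunit of G13, had 206.4 at 1 hour and 203.5, 198.2 and 259.8 in the others on 104316_at (-0.05, SD 0.22). On 100514_at it had 413.3 at 1 hour and 567.0, 550.5 and 628.5 in the others (-0.45, SD 0.09), all 3 above the 1-hour value.

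Of 6 tested probe sets of other beta and gamma subunits, 1 was 2-fold or more lower at 1 hour, where 4.55% of all tested were. It too belonged to a gene whose second probe set did not share the low value. Gng12 99477_at had 32.5 at 1 hour, which is under the floor, whereas the others had 130.4, 160.9 and 227.9. With the floor at the 40th percentile 0 of the 6 were 2-fold or more lower. Gng12 102767_at had 1559.2 at 1 hour and 1435.4, 1389.0 and 1376.4 in the others (0.15, SD 0.03). Gng3, a gamma subunit of neurons, had 8866.5 at 1 hour and 7267.1, 6397.0 and 9037.6 in the others, within their range. Gng10 had 1734.8 at 1 hour and 1478.2, 1301.5 and 1123.4 in the others (0.41, SD 0.20), and Gng2 had 259.5 at 1 hour and 381.1, 260.0 and 375.8 in the others (-0.31, SD 0.30). Gng11 had 185.6 at 1 hour and 146.7 to 190.9 in the others (0.16, SD 0.23).

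RGS proteins speed up GTP hydrolysis. Among 17 tested probe sets of these and of other regulators of alpha subunits, 12 lay above 0 at 1 hour and 5 below. Their median was 0.10, and 54.6% of all tested probe sets lay above 0. Of the 17, 2 were 2-fold or more lower, where 4.55% of all tested were. These were Rgs11 102650_at and Gpsm3 94442_s_at. Rgs11 had 66.4 at 1 hour and 150.9 to 280.2 in the others (-1.76, SD 0.47). Gpsm3 had 52.7 against 192.0 to 252.4 (-2.11, SD 0.19). Rgs7, like Rgs11 a partner of Gnb5, had 1039.0 at 1 hour and 902.9 to 967.3 in the others (0.18, SD 0.06), chosen after its values were seen. Rgs7 and Rgs11 thus differed in direction. Rgs10 had 609.2 at 1 hour and 401.2 to 557.6 in the others on 160629_at (0.47, SD 0.29), and 411.7 against 295.8 to 417.0 on 161765_f_at (0.23, SD 0.25). Pcp2, a GoLoco protein that binds Gi and Go, had 159.6 at 1 hour and 54.6 to 223.2 in the others on 162452_at (0.40, SD 1.08), and 260.7 against 250.2 to 534.0 on 102376_r_at (-0.36, SD 0.56), so its probe sets differed in direction. With the floor at the 40th percentile 0 of the 17 were 2-fold or more lower.

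Of 17 tested probe sets of effectors 5 lay above 0 at 1 hour and 12 below, with a median of -0.16. Of all tested probe sets 54.6% lay above 0. Among the 17, 1 was 2-fold or more lower, where 4.55% of all tested were. It was Cacna1a, the pore of the P/Q-type calcium channel. Cacna1a had 163.2 at 1 hour and 439.3, 649.6 and 391.1 in the others (-1.53, SD 0.40). Cacna1b, the pore of another calcium channel, did not share this low value. It had 556.6 at 1 hour and 576.6 to 616.7 in the others (-0.06, SD 0.06), chosen after its values were seen. Adcy9, an adenylyl cyclase, had 2248.0 at 1 hour and 1420.9 to 1573.9 in the others on 92527_at (0.57, SD 0.09), while its probe set 98356_at had 1956.5 against 1997.5 to 2460.3 (-0.16, SD 0.14). Kcnj9, a subunit of the potassium channel opened by beta-gamma dimers, had 188.7 at 1 hour and 293.1 to 598.0 in the others on 161799_r_at (-0.95, SD 0.57), and 190.0 against 248.5 to 460.6 on 98332_at (-0.77, SD 0.44). Adcy8, a cyclase activated by calcium and calmodulin, had 294.6 at 1 hour and 178.9 to 280.0 in the others (0.39, SD 0.36).

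Receptor kinases and arrestins, which switch receptors off, had 4 tested probe sets, 3 below 0 at 1 hour and 1 above. Of all tested probe sets 54.6% lay above 0. Arrb1, which encodes beta-arrestin 1, divided by probe set as well, and held the 1 that was 2-fold or more lower (4.55% of all tested were). Arrb1 100473_at had 336.0 at 1 hour and 679.6, 743.2 and 767.5 in the others (-1.09, SD 0.09), and Arrb1 162481_f_at had 681.8 against 539.2, 491.3 and 495.0 (0.47, SD 0.06). Grk6, a receptor kinase, had 840.4 at 1 hour and 1233.6, 1620.3 and 1419.7 in the others (-0.73, SD 0.20), and Grk5, another, had 113.9 at 1 hour and 143.6 to 196.8 in the others (-0.55, SD 0.26).

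Of the 23 tested probe sets of receptors coupled to G proteins, 11 lay above 0 at 1 hour and 12 below, with a median of -0.02. Of all tested, 54.6% lay above 0. With equal medians 12 lay above and 11 below. With the floor at the 40th percentile 10 lay above and 13 below, with a median of -0.23. A pseudocount of 16 in place of the floor also gave 10 and 13. Chrm1, the muscarinic receptor of pyramidal neurons that couples to Gq, was the 1 that was 2-fold or more lower (4.55% of all tested were). It had 203.9 at 1 hour and 710.2, 726.6 and 632.7 in the others (-1.72, SD 0.12). Hrh2, the histamine receptor that couples to Gs, was the 1 that was 2-fold or more higher (1.76% of all tested were). With the floor at the 40th percentile 0 of the 23 were. Hrh2 had 307.3 at 1 hour and 310.6, 169.0 and 41.5 in the others (1.26, SD 1.44), with the 6-hour sample by far the lowest. Drd2, the dopamine receptor that couples to Gi and Go, had 103.4 at 1 hour and 171.1 to 189.2 in the others (-0.81, SD 0.11). Sstr2, a somatostatin receptor with the same coupling, had 341.7 at 1 hour and 148.4 to 270.9 in the others on 98351_g_at (0.84, SD 0.45). Its other probe sets gave 236.0 against 182.2 to 240.0 on 98350_at (0.21, SD 0.18) and 148.0 against 152.9 to 219.9 on 98352_r_at (-0.30, SD 0.25), so they differed in direction. In none of these 6 lists was a probe set called in either trend.

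The probe sets most like Gnao1 100388_at were found by the distance between log2 values over the 4 samples, each probe set centred on its own mean. The nearest was Rcc2 (160206_at), a regulator of chromosome condensation, with signals of 43.1 at 1 hour and 269.1, 300.4 and 320.3 in the others, at a distance of 0.05. Ntrk3, the receptor for neurotrophin 3, followed at 0.24 with 40.9 at 1 hour and 220.2 to 316.3 in the others, and Cops7a, a subunit of the COP9 signalosome, at 0.28 with 81.5 against 424.0 to 483.2. The next were Zfp574 at 0.33, Nnat at 0.34 and Rab7 at 0.40. Nnat, a membrane protein of developing brain, had 890.7 at 1 hour and 4523.9 to 5004.7 in the others, so it was far above the floor in every sample. In all, 13 other probe sets lay within 0.5, the median distance over 7453 was 2.49, and the closest other G protein member was Gnao1 161902_f_at at 1.99. With 4 samples, and 1 of them far from the rest, such likeness mostly records which probe sets share the low 1-hour value.

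**Figure D4:**
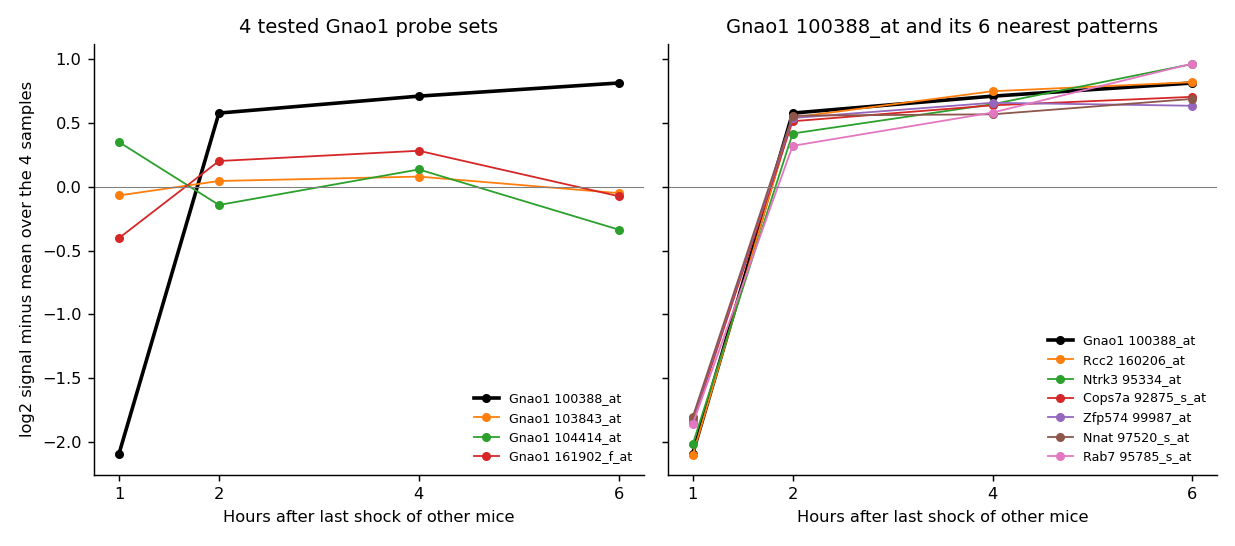
Log2 signal minus each probe set's mean over the 4 samples, by hours after the last shock of the other mice; left, the 4 tested Gnao1 probe sets, and right, Gnao1 100388_at (black, thick) with the 6 nearest patterns. On the left 100388_at stands alone at 1 hour, and on the right Rcc2 runs on top of it at a distance of 0.05.

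Most of the genes start in sequence rich in CpG, a feature the choice did not use. RefSeq start sites on GRCm38.p6 were given for 7 of the 8 genes, Gnai2 having no entry in the table used, and made 10 promoters, 4 of them of Gnas and 2 of those overlapping. In the 250 bases before the start the median number of CpG was 24 in these and 6 in all 32851 promoters of the table. Of the 10, 9 held 12 or more, as did 33.5% of all. The exception was Gnb5, with 3. The promoter of Gnao1 (chr8:93810588-93810837, plus strand, 36 CpG), given for a start site inside the annotated span of the gene and not at its first base, and that of Gnb5 (chr9:75306038-75306287, plus strand) are shown as the contrast within the set, with each CpG in capitals. This is a description of the sequence, and nothing about the signals follows from it.
Gnao1: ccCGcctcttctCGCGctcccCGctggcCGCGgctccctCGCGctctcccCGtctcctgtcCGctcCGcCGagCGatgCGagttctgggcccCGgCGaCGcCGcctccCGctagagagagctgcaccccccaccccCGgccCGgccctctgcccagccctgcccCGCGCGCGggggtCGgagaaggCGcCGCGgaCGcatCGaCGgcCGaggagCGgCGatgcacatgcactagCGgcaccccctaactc
Gnb5: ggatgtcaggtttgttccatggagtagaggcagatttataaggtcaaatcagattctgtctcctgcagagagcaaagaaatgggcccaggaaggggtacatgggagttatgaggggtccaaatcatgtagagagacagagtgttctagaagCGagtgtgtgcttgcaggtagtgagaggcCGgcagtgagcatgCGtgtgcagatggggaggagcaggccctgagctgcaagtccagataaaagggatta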

How the data were processed

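RNA of 4 handled control CA1 samples was read on 1-colour arrays. The deposited values are intensities on a linear scale, 1 per probe set, and the values themselves show that the authors had brought each array to a common level (mean after trimming 2% at each end, 500.3). The array software and scanning are not given in the labels. Of 12488 probe sets 66 were array controls. Of the other 12422, 10833 had 1 symbol, 396 several and 1193 none.

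Here the 4 arrays were quantile normalized, signals below the 20th percentile (35.1) were raised to it, and log2 was taken. The 7453 probe sets with a mean log2 value at or above the 40th percentile were tested with limma 3.58.1 in R 4.3.3 (lmFit, eBayes with an intensity trend), with hours as a linear term and two-sided p-values adjusted by Benjamini and Hochberg over all tested. The p-values measure only the spread between these samples. The fits were tested on simulated data, in which the fit of 3 samples made no calls at the sizes tried. Alternatives to the scaling, floor, filter, time coding and samples were run.

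The members and the lists were chosen with earlier results of these data known. Named are all member probe sets and, from each list, the 2 highest and the 2 lowest 1-hour differences among tested probe sets above the floor in all samples, others past 2-fold, other tested probe sets of those genes, and the 6 patterns nearest to Gnao1 100388_at. Positions and promoters are from RefSeq, GRCm38.p6.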

Additional observations from a re-analysis of the deposited data

Results flagged for a closer look

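Over the 4 samples, 18 member probe sets with unequal values were examined for a sample far from the others, by the gap to its neighbour as a share of the whole range on the log2 scale (limit 0.829). Chance passes about 1 in 20 groups, and 6.84% of all tested probe sets passed. Gnao1 100388_at passed for its 1-hour signal of 43.9, with a share of 0.919. The genes were chosen by that value, so its passing was fixed by the choice and is no evidence. Gnas 93271_s_at passed for its 1-hour signal of 38419.2, with a share of 1.0, because quantile normalization gave its 2-, 4- and 6-hour samples the same value. As deposited that signal was the highest of the 4, not the lowest.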

How the results depend on the processing

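No paired analysis was possible because the series has 1 group with 1 sample at each hour. The trend over 1, 2, 4 and 6 hours was called in 0 probe sets under each scaling, floor, filter and time coding tried, and in 0 to 5 with 1 sample left out in turn. The 5 appeared without the 2-hour sample (Ttr, Actb, Syt11 and 2 probe sets of Mobp, named after their values were seen), and none was a member. The trend over 2, 4 and 6 hours was called in 0 under the same alternatives, and with 1 of those 3 samples left out it gives values with no test. The number of probe sets 2-fold or more lower at 1 hour (339) was 608 with no filter on low values and 150 with the filter at the 60th percentile, and the number higher (131) was 533 and 20. With the floor at the 40th percentile the number higher was 74, and with a pseudocount of 16 in place of the floor 87. Leaving out 1 of the other samples in turn gave 333 to 371 lower and 148 to 172 higher. The number with a range of 2-fold or more (1330) was 3432 with no filter, 428 with the filter at the 60th percentile, and 679 to 1046 with 1 sample left out, lowest without the 1-hour sample. The filter changes how many probe sets are tested. No member difference of 2-fold or more at 1 hour changed sign. Taken alone, Gnao1 100388_at ran from -2.85 (without the 2-hour sample) to -1.40, nearest 0 with the floor at the 40th percentile. The mean of all 4 tested Gnao1 probe sets was -0.74. Low signals near the floor limit what can be read of dim probe sets.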
